A study of Mus musculus with 5 samples.

Results

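The HoxA, HoxB and HoxD genes of the mouse were examined in maps of accessible chromatin. The maps were made by ATAC-seq, which reads out where a transposase loaded with adapters can reach the DNA. The 29 genes were taken by name from 3 of the Hox clusters, 10 from HoxA on chromosome 6, 10 from HoxB on chromosome 11 and 9 from HoxD on chromosome 2, of 21887 protein-coding genes in all. Embryos were of the CD1 stock, and no allele or treatment was named. Distal ectoderm of the forelimb (2 libraries) and of the hindlimb (2 libraries) came from stage E14.5 and was parted from the mesoderm with trypsin. Forebrain (1 library) came from stage E13.5 and was dissociated with collagenase, so ectoderm and forebrain differed in tissue, stage and enzyme at once. Whether replicates were separate embryos is not stated, so their spread may be technical. No test was run, since forebrain had 1 library and an exact permutation of 2 limb libraries against 2 cannot give a two-sided p below 0.333.

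Hox genes encode homeodomain transcription factors that give cells their identity along the body axis and along the limb. Within a cluster the genes lie in the order in which they are used, the low-numbered groups early and toward the head, the groups up to Hox13 late and toward the tail and the limb tip, and Polycomb complexes hold them silent where they are not used. HoxA and HoxD genes are best known in limb mesenchyme, where Hoxa13 and Hoxd13 pattern the digits. Silent Hox genes are a familiar property of the forebrain, and among limb and skin ectoderm it is HoxC genes, above all Hoxc13, that are known for roles in hair and nails.

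Each library came as its own list of peaks with the authors' fold over background, −log10 p and −log10 q per summit. The forelimb lists held 82649 and 81232 summits, the hindlimb lists 55391 and 86219 and the forebrain list 151077. These values belong to each list, so a peak's strength is given below as the percentile of its −log10 p within its own list, where 100 is the strongest. A gene without a peak had none called at the authors' threshold, which is not the same as closed chromatin, and in bulk tissue fewer cells of a type and less signal per cell cannot be told apart. Of 10 epidermis markers, 8, 9, 5 and 8 had a start peak in forelimb replicates 1 and 2 and hindlimb replicates 1 and 2 and 5 in forebrain. Of these markers, Krt14 had none in the ectoderm, and Trp63 had a peak in 1 ectoderm library. All 10 forebrain markers had a start peak in forebrain, against 5, 3, 4 and 5 in the ectoderm libraries. Of 12 limb mesenchyme markers, 4, 1, 2 and 2 had a start peak in the same 4 libraries and 9 in forebrain, and Twist1 and Col1a1 had one in 3 of them. Of 5 genes each, melanocyte markers had start peaks for 3 in every ectoderm library, endothelium markers for 1 to 3 and blood markers for 2 to 3, while Dct, Tyr, Pecam1, Cdh5, Ptprc and Gata1 had none in the ectoderm. In forebrain each of these 3 lists had a start peak at 4 of 5 genes. The part of such cells in the Hox results was not tested.

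Peaks at the starts of the Hox genes were fewer than at the starts of genes at large, in every library. A start peak means a summit within 1 kb of the annotated start, or of either gene end for the 8 genes whose start was not in the promoter table used (Hoxa4, Hoxb2, Hoxb3, Hoxb5, Hoxb6, Hoxb7, Hoxb9 and Hoxb13). In forelimb replicate 1, 11 of the 29 genes had one (37.9%, exact binomial 95% interval 20.7 to 57.7, counting error only), against 61.4% of all protein-coding genes. In forelimb replicate 2 it was 7 genes (24.1%, 10.3 to 43.5), against 58.9%. In hindlimb replicate 1 it was 6 genes (20.7%, 7.99 to 39.7), against 52.9%. The hindlimb libraries stood farthest apart, since 13 genes (44.8%, 26.4 to 64.3) had a start peak in replicate 2, against 61.1% of all genes. Forebrain had the most, with 17 genes (58.6%, 38.9 to 76.5), against 66.0%. In hindlimb replicate 2 and forebrain the share of all genes lay inside the interval, and in the other 3 libraries above it.

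**Figure D1:**
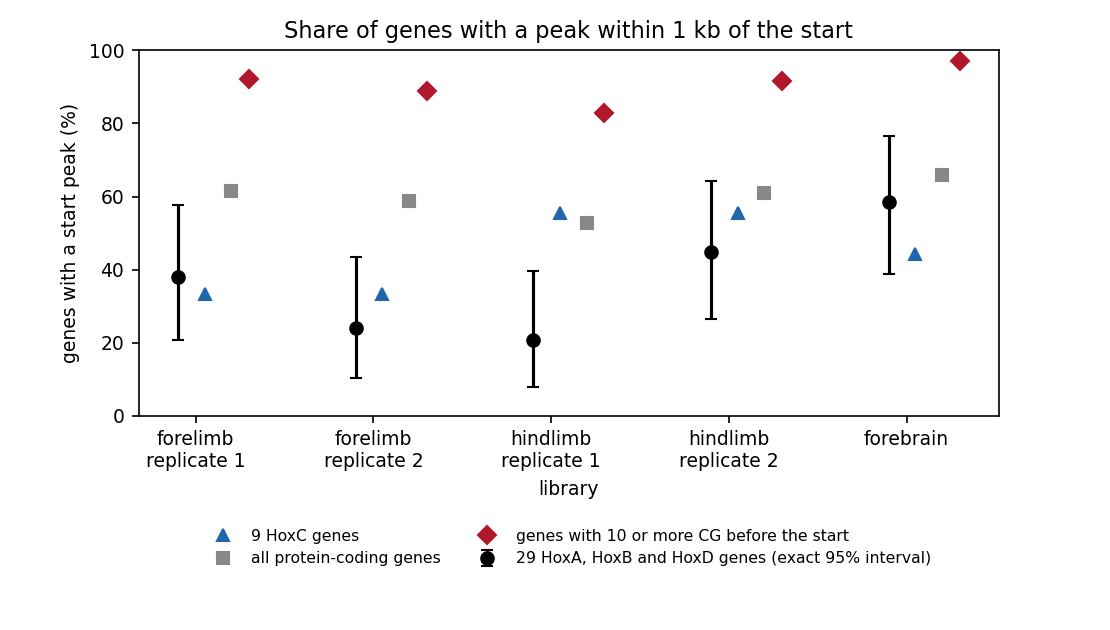
Share of genes with a peak within 1 kb of the start (vertical axis, percent) in each library (horizontal axis), for the 29 HoxA, HoxB and HoxD genes, the 9 HoxC genes, all protein-coding genes and genes with 10 or more CG before the start. Bars around the shares of the 29 genes are exact binomial 95% intervals, which cover counting error only. The Hox shares of 37.9, 24.1, 20.7, 44.8 and 58.6% lie below the shares of all genes in the 5 libraries.

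The same Hox gene seldom had a start peak in more than 1 ectoderm library. Of the 29 genes, 8 (27.6%) had a start peak in no ectoderm library, 12 (41.4%) in 1, 4 in 2, 3 in 3 and 2 (6.9%) in all 4. Over all protein-coding genes a similar share, 32.1%, had none, but 7.0% had a start peak in 1 ectoderm library and 49.0% in all 4. The replicates shared few: 5 of the 11 genes of forelimb replicate 1 were among the 7 of replicate 2, which is 45.5% and 71.4% of each list, against 91.4% and 95.3% for all genes. The hindlimb libraries shared 3 genes, 50.0% of replicate 1 and 23.1% of replicate 2, against 95.7% and 82.9% for all genes. Hindlimb replicate 2 held the peaks of 6 genes alone among the ectoderm libraries (Hoxa3, Hoxa5, Hoxa7, Hoxb2, Hoxb9 and Hoxd4). The 1 kb limit bears on such counts: at Hoxa7 the summit of replicate 2 lay 986 bp from the start, and replicate 1 had a peak in the same region just past the limit. In any ectoderm library, 21 of the 29 genes had a start peak, 9 of them HoxD genes, a share above the 67.9% of all genes. Without hindlimb replicate 2 there were 15.

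The peaks at Hox starts ranked lower in their lists than start peaks of genes at large. Their median percentile was 19.9 and 22.4 in the forelimb libraries, 41.6 and 57.6 in the hindlimb libraries and 35.5 in forebrain, while start peaks of all genes had medians of 88.8, 87.6, 86.2, 88.5 and 94.3. The strongest Hox start peaks reached percentiles of 57.3, 38.5, 69.6, 82.7 and 68.7. In reads over the summit, worked out from fold and −log10 p, the Hox medians were 18, 17, 24, 35 and 21, against 58, 57, 46, 82.5 and 214 over every 10th gene with a start peak. Of the 1460 forebrain genes so sampled, 367 were beyond what could be solved, yet all 1460 were used, so the 214 is approximate. The smallest called summit of the libraries held 10 to 12 reads, so the Hox medians of the forelimb libraries were near that limit, while hindlimb replicate 2 reached 75 reads.

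How many Hox genes had a forebrain start peak depended on the length of the forebrain list. With each list cut to its 55391 strongest summits, the size of the shortest, forebrain kept start peaks at 2 Hox genes, Hoxd1 and Hoxd9, and the ectoderm libraries at 4, 1, 6 and 10. The share of all genes was then 59.0% in forebrain and 57.5, 55.1, 52.9 and 56.4% in the ectoderm. At −log10 q of 5 or more, 9 Hox genes kept a forebrain start peak, and 3, 0, 1 and 10 kept one in the ectoderm libraries.

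At the median the Hox promoters were not poor in CG, though single promoters held from 2 to 35. The 23 promoters found in RefSeq for 21 of the genes (build GRCm38.p6, 250 bases before each start) had a median of 13 CG dinucleotides and 58.0% G+C, against 10 and 55.6% over all protein-coding promoters. Of genes with 10 or more CG in those bases, a threshold chosen after the values were seen, 92.3, 89.0, 83.0 and 91.5% had a start peak in the 4 ectoderm libraries and 97.2% in forebrain. Of the 15 Hox genes that met it, 8, 4, 4, 6 and 10 had one. In all 4 ectoderm libraries it was 1 of the 15, against 79.8%.

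Promoters are printed for genes that the results turn on, each 250 bases, 5′ to 3′ on the gene's strand, ending at the base before the start. Hoxa13 and Hoxd13 are the genes of the Hox13 end. Hoxd11 had a start peak in all 5 libraries and Hoxb1 in the ectoderm alone. Hoxd9 had the strongest forebrain fold at a start but for Hoxd1, and Hoxa6 and Hoxb8 had no start peak in any library. Capitals mark matches, on either strand, to TAATTA (a homeodomain core), TGATNNAT (a Hox and Pbx composite), CCAAT (bound by NF-Y) and TATAAA (the TATA box), and a TGATNNAT match may overlap the others.
Hoxa13, chr6:52260881-52261130, minus strand: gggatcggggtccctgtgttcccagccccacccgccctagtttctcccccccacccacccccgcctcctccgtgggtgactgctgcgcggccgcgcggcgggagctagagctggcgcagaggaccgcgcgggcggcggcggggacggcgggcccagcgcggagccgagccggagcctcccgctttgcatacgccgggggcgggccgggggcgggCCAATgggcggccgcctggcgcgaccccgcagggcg
Hoxd13, chr2:74667975-74668224, plus strand: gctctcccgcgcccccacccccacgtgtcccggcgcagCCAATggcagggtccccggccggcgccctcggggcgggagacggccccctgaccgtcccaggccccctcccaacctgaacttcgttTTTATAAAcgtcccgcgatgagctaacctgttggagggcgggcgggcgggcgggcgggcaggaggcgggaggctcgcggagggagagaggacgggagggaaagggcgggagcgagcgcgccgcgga
Hoxd11 at its second start, chr2:74682073-74682322, plus strand: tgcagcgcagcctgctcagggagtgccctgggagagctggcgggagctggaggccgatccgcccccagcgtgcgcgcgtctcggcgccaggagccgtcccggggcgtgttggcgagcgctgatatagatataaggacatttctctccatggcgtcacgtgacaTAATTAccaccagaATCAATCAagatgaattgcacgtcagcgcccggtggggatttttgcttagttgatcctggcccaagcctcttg
Hoxd9, chr2:74697513-74697762, plus strand: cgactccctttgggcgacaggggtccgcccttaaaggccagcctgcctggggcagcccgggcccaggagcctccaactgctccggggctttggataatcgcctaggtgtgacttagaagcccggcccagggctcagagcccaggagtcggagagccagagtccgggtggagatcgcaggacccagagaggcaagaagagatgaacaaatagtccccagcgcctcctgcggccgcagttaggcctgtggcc
Hoxb1, chr11:96365508-96365757, plus strand: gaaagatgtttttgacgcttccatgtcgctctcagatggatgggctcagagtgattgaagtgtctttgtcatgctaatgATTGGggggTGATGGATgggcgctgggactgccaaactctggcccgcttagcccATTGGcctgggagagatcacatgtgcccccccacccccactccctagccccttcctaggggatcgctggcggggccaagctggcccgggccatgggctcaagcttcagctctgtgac
Hoxa6, chr6:52208673-52208922, minus strand: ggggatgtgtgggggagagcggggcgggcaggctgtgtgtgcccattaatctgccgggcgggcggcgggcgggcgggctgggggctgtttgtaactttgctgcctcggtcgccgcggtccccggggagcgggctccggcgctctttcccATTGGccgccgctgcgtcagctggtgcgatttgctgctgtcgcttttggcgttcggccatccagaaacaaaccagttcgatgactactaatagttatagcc
Hoxb8, chr11:96281655-96281904, plus strand: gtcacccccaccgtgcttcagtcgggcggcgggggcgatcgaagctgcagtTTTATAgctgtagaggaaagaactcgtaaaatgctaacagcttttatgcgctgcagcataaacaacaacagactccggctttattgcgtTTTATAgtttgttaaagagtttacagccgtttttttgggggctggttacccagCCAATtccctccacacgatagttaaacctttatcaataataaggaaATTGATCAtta

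Whether peaks over these bases go with the number of CG was not tested. Among Hox promoters not printed, those of Hoxa3, Hoxa5, Hoxd1 and Hoxd10, with 18, 28, 24 and 20 CG, were overlapped by a peak in some library. The Hoxa10 promoter at chr6:52234940-52235189, with 20 CG, was not, nor were most promoters with fewer than 18. Hoxa13 had 35 CG in its 250 bases and a peak over them in both forelimb libraries. Hoxa6 had 24 CG and no peak in any library. Hoxd13, with 31 CG, was overlapped by peaks of forelimb replicate 1, hindlimb replicate 2 and forebrain, and Hoxb1, with 7 CG, by a peak of hindlimb replicate 1. CCAAT stood in 14 of the 23 Hox promoters (60.9%), against 35.4% of 21263 protein-coding promoters. TGATNNAT stood in 4 (17.4%, against 6.68%), TATAAA in 4 (17.4%, against 11.6%) and TAATTA in 2 (8.7%, against 4.31%). These differences were not tested. Hoxb1 held its TGATNNAT match 155 to 162 bases before the start, between CCAAT matches, and the second start of Hoxd11 held TGATNNAT and TAATTA 66 to 73 and 82 to 87 bases before it. A match is a description of letters and does not mark a bound site.

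All 9 HoxD genes had a start peak in some ectoderm library, which was so for 6 of 10 HoxA genes, 6 of 10 HoxB genes and 67.9% of all genes. Hoxd3, Hoxd4, Hoxd8, Hoxd9 and Hoxd12 had it in 1 ectoderm library alone. HoxD genes with a start peak numbered 7, 3, 3 and 4 in the ectoderm libraries and 7 in forebrain, so forelimb replicate 1 held the most of the ectoderm. Hoxd13, which patterns the digits, had folds of 3.88 and 2.54 in forelimb replicates 1 and 2, none in hindlimb replicate 1, 3.64 in hindlimb replicate 2 and 3.87 in forebrain. Its peak in forelimb replicate 1 was at percentile 57.3 and that in forelimb replicate 2 at percentile 3.98, so the forelimb replicates were far apart. Hoxd12 had a peak of 2.54 in forelimb replicate 1 and of 2.44 in forebrain and nowhere else, at percentiles 7.94 and 10.6.

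Hoxd11, which patterns the forearm together with Hoxa11, was the only gene of the 29 with a start peak in all 5 libraries, against 48.5% of all genes. Forelimb folds were 3.49 and 2.98, hindlimb folds 3.4 and 3.69 and the forebrain fold 2.38. These were not a single site. Forelimb replicates 1 and 2 and hindlimb replicate 2 shared a peak at chr2:74681600-74681940, upstream of the second start. Both hindlimb libraries (3.4 and 2.19) and forebrain had another at chr2:74682036-74682620, over the promoter printed above, and the forelimb libraries had none there.

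Hoxd10, a gene of the distal limb and lumbar region, had folds of 2.84 and 2.54 in forelimb, none in hindlimb replicate 1, 2.88 in hindlimb replicate 2 and 4.32 in forebrain. Hoxd9 had 3.17 in forelimb replicate 1 and 4.64 in forebrain, and Hoxd8 had 2.76 and 3.78 in the same libraries. Forebrain thus had the higher percentile at each of these 3 genes, at 54.6, 64.8 and 51.0. At the other end of the cluster, Hoxd4 had a peak in hindlimb replicate 2 alone (3.51) and Hoxd3 in hindlimb replicate 1 alone (2.85). Hoxd1 had folds of 3.69 in forelimb replicate 1, 2.63 in hindlimb replicate 1 and 5.75 in forebrain, 47 bp from the start, the highest forebrain fold at a start among the 29 genes.

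HoxA start peaks were mostly those of hindlimb replicate 2 and forebrain, with 5 of the 10 genes in each. The forelimb libraries had 2 genes each and hindlimb replicate 1 had 0. Hoxa13 had folds of 2.65 and 3.03 in the forelimb libraries, at percentiles 10.5 and 29.6, and no start peak in either hindlimb library or in forebrain. Within the gene, at chr6:52259133-52259639 and 1314 bp from the start, hindlimb replicate 1 (2.55, percentile 18.8) and forebrain (2.54) had a peak that the forelimb libraries did not. It was the only gene of the 29 with a start peak in both forelimb libraries and neither hindlimb library, against 0.886% of all genes; none had the reverse pattern, against 0.411%. The Hoxa13 peaks had −log10 q of 2.49 and 3.62 and were lost at the stricter limit of 5.

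Next to it, Hoxa11, which patterns the forearm, had a peak in forebrain alone (2.47), and Hoxa10, used in the lumbar region and uterus, had 2.52 in forelimb replicate 1, 3.77 in hindlimb replicate 2 and 3.92 in forebrain. Hoxa9, known from blood stem cells, and Hoxa6 had no start peak in any library. Just past the limit, hindlimb replicate 2 had a peak of 3.88, at percentile 72.8, within Hoxa9 and 1110 bp from its start. In hindlimb replicate 2 alone among the ectoderm libraries, Hoxa5 had a fold of 3.01 and Hoxa3 of 5.24. Hoxa7 had 4.41 in that library within 1 kb, and hindlimb replicate 1 had 3.7 in the same region, past that distance. The Hoxa3 peak held 75 reads and was at percentile 82.7, the strongest start peak of the 29 genes in any library by that measure. Its region, chr6:52213213-52213632, lies between Hoxa6 and Hoxa7, over the non-coding gene Hoxaas3, for which the same peak is counted. Hoxa4 had 3.05 in forelimb replicate 2, 4.23 in hindlimb replicate 2 and 4.09 in forebrain, and Hoxa2, which gives the second arch its identity, had a peak of 3.49 in forebrain alone.

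HoxB had a gene with a start peak in all 4 ectoderm libraries and none in forebrain, Hoxb1, which is otherwise known from the hindbrain. Forelimb folds were 3.38 and 3.2 and hindlimb folds 2.87 and 2.98, at percentiles 45.5, 38.5, 45.3 and 26.8. It had none in forebrain, whose nearest peak was 12928 bp from the Hoxb1 region. No other of the 29 genes had this pattern, against 0.516% of all genes. The summits lay 512, 899, 124 and 745 bp from the start, so that within 250 bp of it only hindlimb replicate 1 had one. They were not a single site. That of hindlimb replicate 1 lay at chr11:96365751-96365999, where no other library had a peak. Those of the other ectoderm libraries lay in chr11:96366170-96367069, where hindlimb replicate 1 had a further peak (2.73) past 1 kb.

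At the Hox13 end, Hoxb13, a gene of the tail and prostate, had 3.02 in forelimb replicate 1, 3.05 and 4.93 in the hindlimb libraries and 2.76 in forebrain. The peak in hindlimb replicate 2 was the highest of these and lay 51 bp from a gene end, while forelimb replicate 2 had none. Hoxb9, a thoracic gene, had 3.7 in hindlimb replicate 2 and 2.85 in forebrain. Hoxb7 had 4.57 in forebrain alone within 1 kb, at 989 bp, in a region where forelimb replicate 1 also had a peak (3.52), and forelimb replicate 2 had one inside the gene (2.9). Hoxb8, Hoxb6 and Hoxb3 had no start peak in any library, though peaks lay elsewhere in or near these genes. The region of the Hoxb7 summit at 989 bp lies within Hoxb8. A forebrain-only region at chr11:96278830-96279108 (4.63, percentile 52.8) lay 0.4 kb from Hoxb8. Hoxb5 had 2.37 in forelimb replicate 2, at percentile 1.66, and 3.33 in forebrain. Hoxb4 had 2.7 in hindlimb replicate 1 and 3.04 in forebrain, and Hoxb2 had 2.75 in hindlimb replicate 2 alone.

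**Figure D2:**
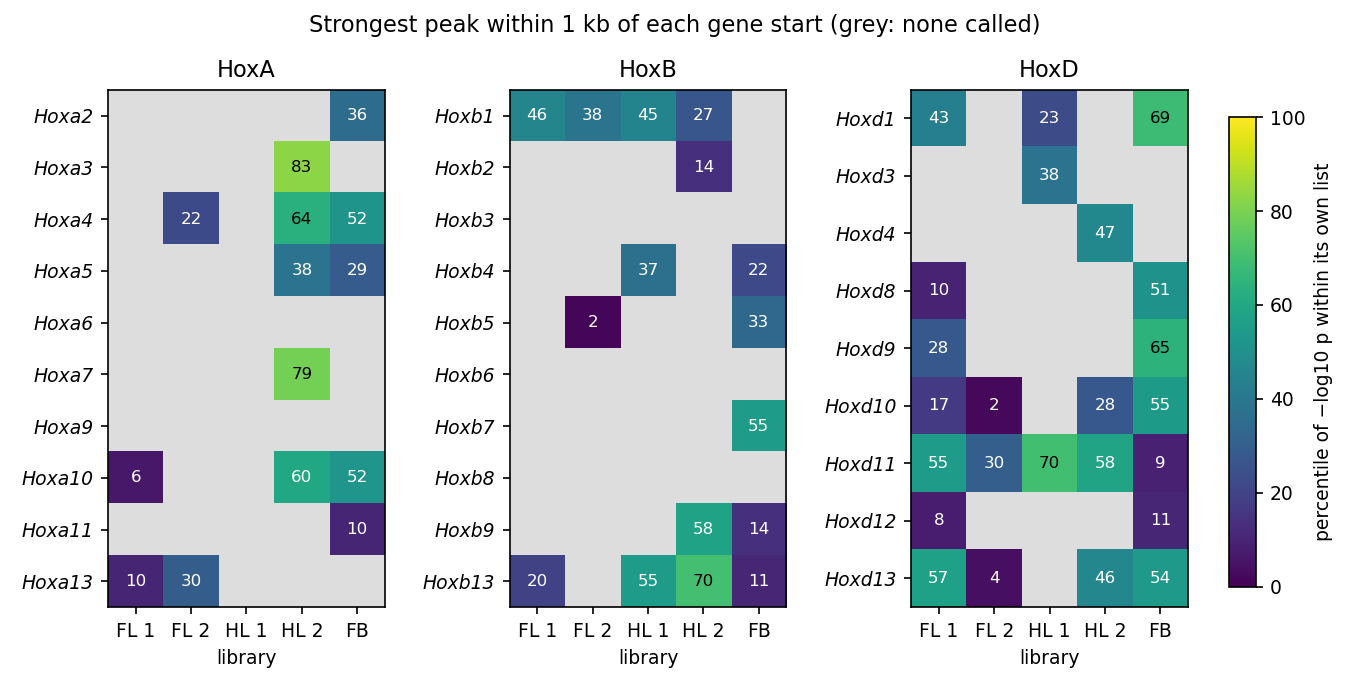
Strongest peak within 1 kb of the start of each of the 29 genes (rows, in cluster order) in each library (columns; FL forelimb ectoderm, HL hindlimb ectoderm, FB forebrain). Colour and printed number give the percentile of −log10 p within the library's own list, and grey cells had no peak called. Hoxd11 is filled in all 5 columns, Hoxb1 in the 4 ectoderm columns, and Hoxa6, Hoxa9, Hoxb3, Hoxb6 and Hoxb8 in none.

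In all, 5 of the 29 genes had no start peak in any library (Hoxa6, Hoxa9, Hoxb3, Hoxb6 and Hoxb8), a smaller share than the 28.2% of all genes. In forebrain alone 3 had one (Hoxa2, Hoxa11 and Hoxb7), a larger share than the 3.85% of all genes, a difference that was not tested. None of these 3 kept it with lists of equal length, where forebrain had start peaks at Hoxd1 and Hoxd9 alone. None of the 5 genes without a start peak was in HoxD, and 3 of them were of groups 5 to 8.

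By group number, genes of groups 5 to 8 had the fewest start peaks in the ectoderm. Group number is not always the place of the start. The Hoxa3 start, at chr6:52213067, lies between Hoxa6 and Hoxa7 but is counted with groups 1 to 4. Of 8 such genes, 1, 1, 0 and 2 had one in the ectoderm libraries and 4 in forebrain. Of 11 genes of groups 9 to 13, used in the tail and limb, 8 and 4 had one in the forelimb libraries, 2 and 6 in the hindlimb libraries and 9 in forebrain. Of 10 genes of groups 1 to 4, 2 and 2 had one in the forelimb libraries, 4 and 5 in the hindlimb libraries and 4 in forebrain. Over all genes the shares were 61.4, 58.9, 52.9, 61.1 and 66.0%. The clusters are unequal in these groups, and the exact intervals were wide, 39.0 to 94.0% for the 8 of 11 genes and 2.52 to 55.6% for 2 of 10, which overlaps the 18.7 to 81.3% for 5 of 10. For groups 5 to 8 they were 0.316 to 52.7% in each forelimb library and 0.0 to 36.9% and 3.19 to 65.1% in the hindlimb libraries. These overlap the intervals of groups 1 to 4 in every ectoderm library.

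The HoxC genes had start peaks for 3, 3, 5 and 5 of 9 in the ectoderm libraries and 4 in forebrain. Over all genes the shares were 61.4, 58.9, 52.9, 61.1 and 66.0%. All HoxC genes but Hoxc4 were placed by either gene end, where 21 of the 29 genes were placed by an annotated start. The counts thus rest on unlike rules. The strongest HoxC peaks were higher in their lists. Hoxc13 had folds of 6.16, 7.42, 6.89 and 11.8 in the ectoderm, at percentiles 89.7 to 97.3, and 4.15 in forebrain, at percentile 54.1. Hoxa13, Hoxb13 and Hoxd13, its counterparts, reached percentiles of at most 29.6, 70.0 and 57.3 in any ectoderm library. Hoxc10 had percentiles of 87.2, 49.5, 86.3 and 88.3 in the ectoderm, while Hoxd10 reached 27.5 and Hoxa10 59.9. HoxC genes at a start peak in all 4 ectoderm libraries numbered 2 of 9, and the 29 genes 2; this difference was not tested.

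Summits across the 3 clusters were denser than the average of the chromosomes, and none was among the strongest of its list. The HoxA cluster, 98.5 kb from the outer end of Hoxa13 to that of Hoxa2, held 6 and 4 summits in the forelimb libraries, 7 and 14 in the hindlimb libraries and 17 in forebrain. Per 100 kb that was 6.09, 4.06, 7.11, 14.2 and 17.3, against 3.04, 2.98, 2.04, 3.17 and 5.55 over all chromosomes. The HoxD cluster (96.9 kb) had 11.3 and 6.19 in the forelimb libraries, 4.13 and 9.29 in the hindlimb libraries and 19.6 in forebrain. The HoxB cluster, which is 173.9 kb long because of the stretch between Hoxb13 and Hoxb9, had 4.6 and 2.87, 4.6 and 4.02, and 6.9. HoxB was below the chromosome average in forelimb replicate 2 and had the lowest density of the 3 in every library but hindlimb replicate 1. In the ectoderm libraries it was also below its own Hox13 flank, at 5.67, 6.67, 5.67 and 8.0. The density was not particular to these clusters, since HoxC had 11.2, 7.78, 9.51 and 16.4 in the ectoderm libraries and 7.78 in forebrain. Of 25, 15, 19, 30 and 48 summits in the 3 clusters, none was above percentile 90 of its list, and 0, 0, 2, 2 and 2 were above percentile 75. Between the ends of its outer genes the HoxC cluster also had none above percentile 90, its highest being at 88.3, but the strong Hoxc13 start peaks lay just outside the gene end and were counted with the flank. The highest fold in the 3 clusters was 7.98 in forebrain and 5.47 in the ectoderm.

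**Figure D3:**
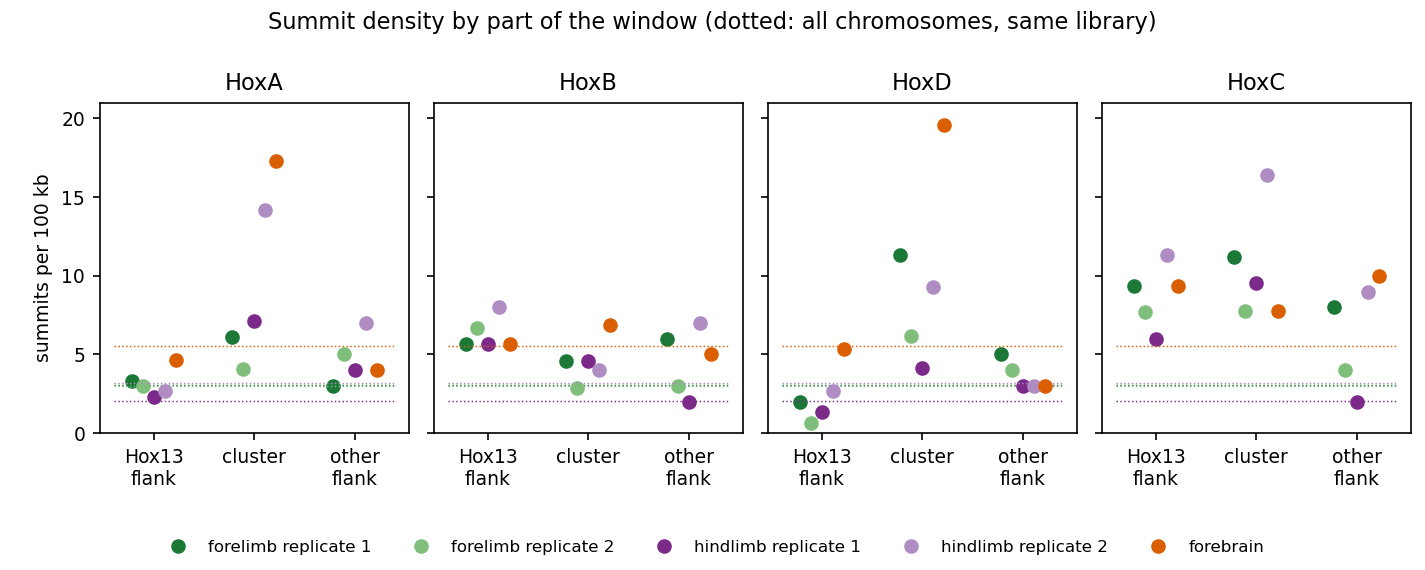
Summits per 100 kb (vertical axis) in the flank beyond the Hox13 end, the cluster and the other flank (horizontal axis) of HoxA, HoxB and HoxD, with HoxC beside them and a point for each library. Dotted lines give the same library over all chromosomes. Forebrain is highest in the clusters of HoxA, HoxB and HoxD, at 17.3, 6.9 and 19.6.

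Long stretches of the clusters had no peak. In HoxB the longest measured 81.6 and 63.8 kb in the forelimb libraries, 83.7 and 75.1 kb in the hindlimb libraries and 40.3 kb in forebrain. It took in the whole of Hoxb9 to Hoxb5 in hindlimb replicate 1, of Hoxb8 to Hoxb4 in hindlimb replicate 2 and of Hoxb7 to Hoxb2 in forelimb replicate 1. The forebrain stretch ran instead from within Hoxb13 toward Hoxb9. In HoxA the longest were 35.9, 41.3, 36.0, 20.0 and 14.3 kb. Those of forelimb replicate 1 and hindlimb replicate 1 took in Hoxa4, Hoxa5 and Hoxa6, and that of hindlimb replicate 2 took in Hoxa11 and Hoxa13. In HoxD they were 19.4, 30.4, 47.3, 30.4 and 24.2 kb, all toward the Hoxd3 and Hoxd1 end. Over all libraries together, peaks covered 10.5% of the HoxA cluster, 5.02% of HoxB and 9.87% of HoxD.

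**Figure D4:**
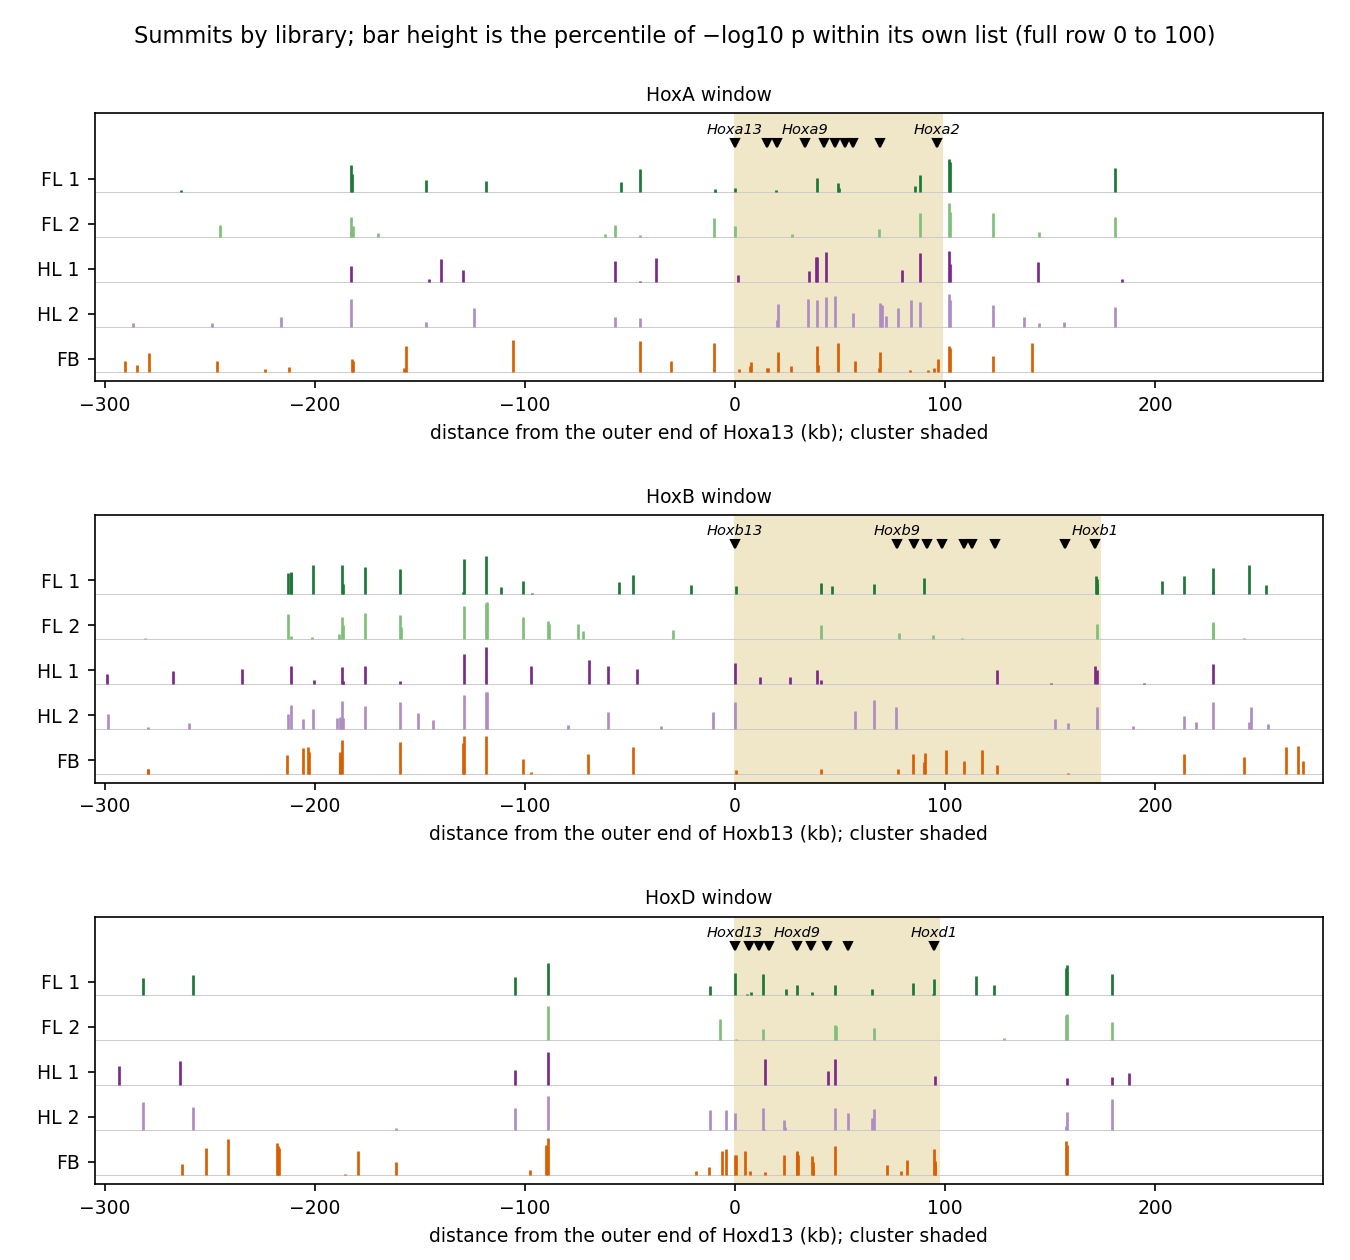
Summits of each library (rows; FL forelimb ectoderm, HL hindlimb ectoderm, FB forebrain) along the HoxA, HoxB and HoxD windows, by distance in kb from the outer end of the Hox13 gene, with the cluster shaded and triangles at the gene ends on the Hox13 side. Bar height is the percentile of −log10 p within the library's own list, from 0 to 100 over a row. The middle of HoxB is empty in the hindlimb rows, and the tallest bars stand outside the clusters.

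Windows for the next counts took in each cluster, 300 kb beyond its Hox13 end and 100 kb beyond its other end. They held 198 regions of merged peaks, 70 in HoxA, 79 in HoxB and 49 in HoxD. Of these, 68.2% had a peak in 1 library alone (exact 95% interval 61.2 to 74.6), against 71.1% of 231612 regions over all chromosomes. Regions with a peak in all 5 libraries were 10, against 6.72% of all regions. Only 1 of them lay inside a cluster, at chr2:74715762-74716363 within Hoxd3 and the antisense gene Hoxd3os1, with folds of 3.25, 3.5, 3.65, 4.11 and 7.98. Of the others, those of HoxA lay in its flanks, those of HoxB lay at neighbours of the cluster such as Igf2bp1, Snf8, Ube2z and Atp5g1, and those of HoxD at Lnpk and Mtx2.

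Ectoderm-only regions, with a peak in all 4 ectoderm libraries and none in forebrain, were 6 of the 198 (3.03%, 1.12 to 6.48), against 2.33% of all regions. HoxA had 1, HoxB 4 and HoxD 1, and 2 of the 6 were inside a cluster. The HoxA region, chr6:52172508-52173027, lay within Hoxa3, 86.0 kb from the Hoxa13 end, with folds of 3.18 and 3.99 in forelimb and 3.8 and 3.88 in hindlimb. The Hoxb1 region, chr11:96366170-96367069, had 3.38 and 3.2 in forelimb and 2.73 and 4.04 in hindlimb. In these 2 regions forelimb and hindlimb values overlapped.

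The other 4 lay in the flanks, where the genes are not Hox genes. In HoxB they were chr11:95982541-95983086 within Igf2bp1 (3.88, 2.6, 3.16 and 4.15 in forelimb replicates 1 and 2 and hindlimb replicates 1 and 2), chr11:96018051-96018471, 6.3 kb from Gip (5.24, 4.88, 3.42 and 5.08), and chr11:96421648-96422195, 42.7 kb from Skap1 (4.73, 3.58, 3.21 and 5.15). In HoxD it was chr2:74847397-74847907 within Mtx2, with 4.64, 4.06, 2.98 and 9.18, the highest fold of the 6 regions. In all 4, hindlimb replicate 1, the shortest list, had the lowest fold except in the first, where forelimb replicate 2 had it.

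Forebrain-only regions were 46 of the 198 (23.2%, 17.5 to 29.7), against 33.1% of all regions. HoxA had 21 of 70 (30.0%, 19.6 to 42.1), HoxB 9 of 79 (11.4%, 5.34 to 20.5) and HoxD 16 of 49 (32.7%, 19.9 to 47.5). HoxB stood lowest, and its Hox13 flank held 1 such region of 41. The strongest of all lay in the HoxD flank, 241.3 kb beyond Hoxd13 at chr2:74426573-74427311, with a fold of 16.7 at percentile 95.1. The next of that flank were chr2:74450114-74450888 (6.92), chr2:74451098-74451880 (4.89) and chr2:74415893-74416548 (7.12), so that the 4 lay within a stretch 216.9 to 251.9 kb beyond Hoxd13. The fifth was between Hoxd13 and Hoxd12, at chr2:74673037-74673313 (4.61).

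In HoxA the leading forebrain-only regions were chr6:52366463-52367300 (9.61), 105.8 kb beyond Hoxa13, chr6:52119247-52119838 (8.37) in the other flank, and chr6:52417497-52417859 (6.38) and chr6:52539894-52540296 (4.23) beyond Hoxa13. The fifth was that at Hoxa2, chr6:52164100-52164366 (3.49). In HoxB they were chr11:96462168-96462713 (6.0) and chr11:96456474-96456995 (6.76) near Skap1, chr11:95990897-95991666 (5.37) in Igf2bp1, chr11:96311640-96312060 (5.57) in Hoxb3 and chr11:96294559-96294861 (5.25) in Hoxb6. Hoxb3 and Hoxb6 thus had forebrain peaks within the gene and none at its ends. Leaving out the weaker forebrain summits so that lists were of equal length left 4, 4 and 8 forebrain-only regions in HoxA, HoxB and HoxD.

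Between the limbs, 4 regions of the 3 windows were forelimb-only, with a peak in both forelimb and neither hindlimb library, against 1.97% of all regions, and 3 were hindlimb-only, against 0.655%. The forelimb-only regions were the start of Hoxa13, chr6:52260708-52261285 (2.65 and 3.03), chr6:52270376-52270842, 9.8 kb beyond it (2.63 and 3.75, with 7.18 in forebrain), chr11:96093220-96093677, 5.4 kb from Calcoco2 (3.3 and 4.32, with 3.74 in forebrain), and chr11:96234879-96235255 between Hoxb13 and Hoxb9 (3.59 and 3.63, with 2.85 in forebrain). The Hoxa13 start was the only one of the 4 with no forebrain peak. The hindlimb-only regions were chr6:52217380-52217758 in Hoxa7 (3.7 and 4.41), chr11:96133519-96133844 in Ttll6 (3.17 and 3.75) and the region of Hoxd11 named above (3.4 and 2.19). At −log10 q of 5 or more none of the forelimb-only regions remained.

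Genes that control Hox clusters mostly had start peaks. Of 25 such genes, 21 and 19 had a start peak in the forelimb libraries, 18 and 21 in the hindlimb libraries and 23 in forebrain, and 18 had one in all 5 libraries. Over all genes the shares were 61.4, 58.9, 52.9, 61.1 and 66.0%, and 48.5% in all 5, and the difference was not tested. Ezh2, the methyltransferase of Polycomb complex PRC2, had folds of 14.0, 12.2, 10.5, 15.2 and 15.2, all at percentiles of 97.9 or more. Suz12 and Eed, its partners, and Rnf2, Cbx8 and Kmt2a, which act in PRC1 and in the activating Trithorax group, also had one in all 5. Cdx1, Cdx2 and Cdx4, the activators of Hox genes in the tail bud, had a start peak in 1, 1 and 0 ectoderm libraries and all 3 in forebrain. Cyp26b1, which breaks down retinoic acid in the limb, and the demethylase gene Kdm6b had none.

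Around the clusters, 12 neighbouring genes had start peaks for 7, 6, 9, 6 and 9. The shares of all genes were 61.4, 58.9, 52.9, 61.1 and 66.0% in the 5 libraries. Evx1 and Evx2, the homeobox genes next to Hoxa13 and Hoxd13, had no start peak in any library, though peaks lay within both genes. A forebrain-only region at chr2:74661713-74662143 (4.68, percentile 65.0) lay 0.5 kb from Evx2. Hibadh, the gene beyond Evx1, had folds of 14.9, 15.1, 9.46, 17.4 and 18.7, and Lnpk, beyond Evx2, had 7.48, 8.84, 6.29, 10.2 and 18.4. Of 13 non-coding genes of the Hox clusters, 2, 1, 2, 3 and 6 had a peak at the start or an end. Hotair of HoxC was among the 6 in forebrain, and 1 of the 13 had a peak in all 5 libraries. Mir10a, Mir10b, Mir196a-1, Mir196b and Hottip, the RNA of the Hoxa13 end, had none. Strand is not kept by ATAC-seq, so peaks at Haglr and Hoxa11os cannot be told from those at Hoxd1 and Hoxa11, which they face.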

How the data were processed

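Per the labels, the authors deposited 1 narrowPeak list for each of the 5 libraries, and no list pools replicates. Build mm10, MACS2 2.1.1.20160309, Bowtie2 2.3.5, cutadapt 1.16, bedtools and Picard are listed in the submitters' processing notes, without settings. The deposited values used per summit were the fold over background (a ratio), −log10 p and −log10 q. The deposited score column was not used. The smallest −log10 q was 1.3 to 1.31, that is q near 0.05. The lists carry no read depth.

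Summits were counted as listed. Regions were peaks merged over libraries by 1 bp of overlap. Reads over a summit and the local background were solved from fold and −log10 p under MACS2's Poisson model. The fit was checked on a sample of the weaker summits of each list, where it was within 0.01 of the listed −log10 p. Background per library was 3.1 to 4.62 reads. Gene positions and promoters were from RefSeq (GRCm38.p6), the assembly that corresponds to mm10. Of 21887 protein-coding genes, 17492 had an annotated start, and either gene end served for the others. Hoxa3 spans Hoxa4 to Hoxa6 and Hoxb3 spans Hoxb4, so a peak within these has more than 1 host. Python 3.11.15, numpy 2.4.6, pandas 2.3.3, scipy 1.17.1 and matplotlib 3.10.9 were used, and the counting was tested on simulated data.

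All 29 genes are reported. Regions were named if ectoderm-only, forelimb-only or hindlimb-only, or among the 5 forebrain-only regions of each window with the largest −log10 p. Genes and lists were chosen with earlier results of these data known. Alternatives were −log10 q of 5 or more, lists of equal length, joining of summits within 250 bp, start distances of 250 bp and 2.5 kb, and leaving out each replicate. Either gene end for every gene was added after the data were seen. Some genes of the clusters are not reported here.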

Additional observations from a re-analysis of the deposited data

How the results depend on the processing

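Counts moved with the alternatives as follows. At −log10 q of 5 or more, ectoderm-only regions fell to 0 in HoxB and 0 in HoxD, forebrain-only regions to 6 in HoxA, forelimb-only regions to 0, genes with a start peak in all 4 ectoderm libraries to 0 and in forebrain to 9, and summits over all libraries to 54, 69 and 58 in the HoxA, HoxB and HoxD windows (from 119, 158 and 103). With lists of equal length, ectoderm-only regions were 2 in HoxA, forebrain-only regions 4, 4 and 8 in HoxA, HoxB and HoxD, forelimb-only regions 1, start peaks in all ectoderm libraries 0 and in forebrain 2, and summits 60, 91 and 60. Joining summits within 250 bp gave 14 forebrain-only regions in HoxB. Within 250 bp of the start, genes with a peak were 0 in all ectoderm libraries and 6 in forebrain, and with either gene end for every gene, added after the data were seen, 1 gene had one in all ectoderm libraries. Leaving out each replicate gave 1 to 2 ectoderm-only regions in HoxA (2 without forelimb replicate 1 or hindlimb replicate 1), 4 to 4 in HoxB and 1 to 2 in HoxD (2 without forelimb replicate 2 or hindlimb replicate 1), 21 to 22, 11 to 12 and 16 to 20 forebrain-only regions, and 2 to 4 genes in all ectoderm libraries, the 4 without hindlimb replicate 1. Forelimb-only regions were then 4 to 27 (8 without hindlimb replicate 2) and hindlimb-only regions 4 to 40 (6 without forelimb replicate 1); the highest values come by construction, since a limb left with 1 library is defined by it. The cause of the other changes was not tested, except that a stricter limit or a shorter list leaves fewer peaks. No paired analysis was possible because the results come from no test and forebrain has a single library. Since depth is not known, a start without a peak says only that none was called.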
